A study of Homo sapiens with 48 samples.

Results

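The Eph receptor tyrosine kinases and their membrane-bound ligands, the ephrins, were followed in 3 human uveal melanoma cell lines treated with a chromatin remodelling inhibitor or a protein kinase C inhibitor. The 10 genes described are the ephrins EFNA1, EFNA3, EFNA4, EFNA5 and EFNB2 and the receptors EPHA2, EPHA3, EPHA4, EPHA5 and EPHB2. They were taken by name from the 58870 genes in the count files, which hold 22 genes of the Eph and ephrin family. The set was chosen by its RNA levels under IDE196: EFNA1 and EPHA4 were singled out because they moved with that protein kinase C inhibitor in these same libraries, so every IDE196 value is given as a description without a test. The comparisons with the other drug, FHT-1015, and of DMSO levels between lines rest on other libraries and were tested. The 6 DMSO libraries beside IDE196 are the reference of the IDE196 values, so their levels too are given without a test, and in the comparison of lines they enter only the scaling, the filter and the estimate of spread.

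RNA was sequenced from 48 libraries in 16 groups of 3 replicates. The lines 92-1, MEL202 and MP41, all labelled uveal melanoma and wild type, received DMSO as negative control or FHT-1015, an inhibitor of SMARCA4 and SMARCA2, the ATPases of BAF chromatin remodelling complexes, for 4 h or 24 h. Line 92-1 also received IDE196 for 4 h or 24 h beside its own DMSO libraries. A line and drug with their 12 libraries are called an experiment. The labels state no dose and no engineered allele, and they name the replicates biological without saying whether they were separate cultures, so the p-values measure the spread between these libraries, which may be technical.

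Ephrins and Eph receptors signal between touching cells, with the receptor signalling into one cell and the ephrin back into the other. Ephrin-A ligands are anchored by a lipid and bind mainly EphA receptors, while ephrin-B ligands span the membrane and bind mainly EphB receptors. The system is known for contact repulsion, tissue boundaries and axon and vessel guidance. In melanocytic tumours EPHA2 is among the best studied receptors, and ephrin-A1 is its high-affinity ligand. Uveal melanomas commonly carry activating mutations of Gq-family proteins, which signal through protein kinase C.

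A run of ephrin-A genes lies on the plus strand of chromosome 1 (GRCh38, GENCODE release 29), with EFNA4 at chr1:155063731-155069553, EFNA3 at chr1:155078872-155087538 and EFNA1 at chr1:155127460-155134857. A readthrough gene, AL691442.1, shares 44.7% of the exonic bases of EFNA3 and 15.0% of those of EFNA4, so the levels of EFNA3 and EFNA4 are uncertain, since reads in shared exons cannot be assigned to either gene. EFNA5 lies at chr5:107376889-107670895 and EFNB2 at chr13:106489731-106535662, both on the minus strand. Of EFNB2's exonic bases, 26.2% overlap the antisense gene AL138689.2, and the library kit does not mark strand. Among the receptors, EPHA2 lies at chr1:16124337-16156087 and EPHB2 at chr1:22710839-22921500. EPHA3 occupies chr3:89107524-89482134, EPHA5 chr4:65319563-65670495 and EPHA4 chr2:221418027-221574202.

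The promoter windows of EFNA1 and EPHA2 are shown because this ligand and this receptor moved in opposite directions in every FHT-1015 comparison at 24 h. That choice of EPHA2 was made after its values were seen. Each window runs from 250 bases before to 50 bases after the RefSeq start site on GRCh38.p14, and capitals mark the motif matches found: at chr1:155127626-155127925 on the plus strand for EFNA1 and at chr1:16156020-16156319 on the minus strand for EPHA2.
EFNA1: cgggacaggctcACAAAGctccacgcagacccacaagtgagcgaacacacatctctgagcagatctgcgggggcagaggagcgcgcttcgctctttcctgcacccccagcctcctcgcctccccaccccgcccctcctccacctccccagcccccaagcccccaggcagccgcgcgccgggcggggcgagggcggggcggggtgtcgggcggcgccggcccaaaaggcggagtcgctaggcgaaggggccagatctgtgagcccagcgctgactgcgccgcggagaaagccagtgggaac
EPHA2: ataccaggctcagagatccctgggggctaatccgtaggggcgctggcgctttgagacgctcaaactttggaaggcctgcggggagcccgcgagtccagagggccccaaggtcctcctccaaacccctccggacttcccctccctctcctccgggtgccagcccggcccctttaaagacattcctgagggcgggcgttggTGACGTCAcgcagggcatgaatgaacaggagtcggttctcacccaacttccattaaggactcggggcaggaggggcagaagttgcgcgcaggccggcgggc
Motifs were searched on both strands. They were TGANTCA (AP-1), TGACGTCA (CRE), CACGTG and CATGTG (E-boxes), ACAAAG and ACAATG (SOX), GTAAACA (FOXO) and CCGGAAG (ETS). None of the matches found overlapped another. The EFNA1 window held 1 match, to ACAAAG at position -238 from the start, a motif found in 16.1% of 34943 promoter windows of this length. The EPHA2 window held 1 match, to TGACGTCA at position -51, a motif found in 1.84% of them. Of the EPHA4 windows in the table, at chr2:221574153-221574452 and chr2:221572255-221572554, the first held ACAATG at position -135, a motif present in 10.8% of windows, and the second held none. The shares for the motifs without a match were 7.72% for TGANTCA, 7.23% for CACGTG, 11.1% for CATGTG, 3.42% for GTAAACA and 10.2% for CCGGAAG. These are matches of letters and show no binding.

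The libraries held from 11394088 to 32317711 reads in genes. Genes with at least 1 read numbered from 17592 to 27150, and the lowest library, FHT-1015 replicate 2 of MEL202 at 4 h, stood below the next lowest at 20023. The coefficient of biological variation fitted by edgeR was 0.117 and 0.112 in the experiments on 92-1, against 0.294 in MEL202 and 0.217 in MP41. Of 8 melanocyte lineage markers, at most 2 were under 1 CPM (counts scaled to a common library size) in any group. Their summed level was lower after 24 h of FHT-1015 in each line: from 19100 to 22200 CPM in DMSO and from 4720 to 5210 CPM with the drug in 92-1, from 7920 to 9820 and from 2860 to 3270 CPM in MEL202, and from 12500 to 13000 and from 5750 to 6570 CPM in MP41. In 92-1 it was lower already at 4 h, from 19900 to 21100 CPM in DMSO and from 15200 to 17200 CPM with FHT-1015. The part of that shift in the results for Eph genes was not tested. The 4 immune markers summed to at most 4.5 CPM and the 4 endothelial markers to at most 4.47 CPM in any library. The 5 fibroblast markers reached 43.0 CPM in MP41 and 30.8 CPM in the DMSO libraries beside IDE196, and the 5 epithelial markers reached 20.3 CPM, also in DMSO libraries beside IDE196. After 24 h of FHT-1015 the fibroblast sum in 92-1 lay above DMSO, from 3.35 to 3.88 CPM and from 10.4 to 12 CPM with the drug, with 4 of the 5 markers (all but COL1A1) under 1 CPM in both groups. In MEL202 at 24 h the endothelial sum was higher (from 0.624 to 1.93 CPM, and from 2.04 to 4.47 CPM with the drug, with PECAM1, CDH5 and VWF under 1 CPM), as was the epithelial sum (from 2.5 to 3.45 and from 4.51 to 6.88 CPM, 4 of 5 under 1 CPM). In MEL202 at 4 h 3 sums reached higher with FHT-1015, though each range overlapped that of DMSO. They were the fibroblast sum (from 2.42 to 3.73 CPM in DMSO, from 3.08 to 13.0 treated), the epithelial sum (from 2.76 to 4.52, and from 3.19 to 9.63) and the immune sum (from 0.651 to 1.11, and from 0.642 to 4.5). With IDE196 at 24 h the fibroblast sum ran from 6.46 to 10.2 CPM in DMSO and from 11.2 to 17.8 CPM treated. The part of these shifts in the Eph results was not tested. In bulk RNA, fewer cells of a type and less RNA per cell cannot be told apart.

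In DMSO, EPHA2 was the most abundant of the 10 genes in every line when levels were set per kilobase of exon. Its level was 14.1 ± 0.954 CPM per kb (SD, n = 6) in the libraries of 92-1 beside FHT-1015, 14.1 ± 2.61 in MEL202 and 10.3 ± 1.59 in MP41, ranks 3, 4 and 4 among the 22 family genes. EFNA4 followed at 8.32 ± 1.03, 11.5 ± 2.81 and 5.7 ± 0.957 CPM per kb, and in MEL202 the ranges of EFNA4 (7.53 to 15.7) and EPHA2 (11.8 to 18.6) overlapped. EPHA4, a broad-specificity receptor that binds both ephrin classes, was near the detection limit at 0.034 ± 0.0186, 0.0304 ± 0.0203 and 0.00927 ± 0.00555 CPM per kb. EPHA3, another ephrin-A receptor, was also low, from 0.0276 to 0.0845 CPM per kb in means. The plot of DMSO levels shows the ranges.

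**Figure D1:**
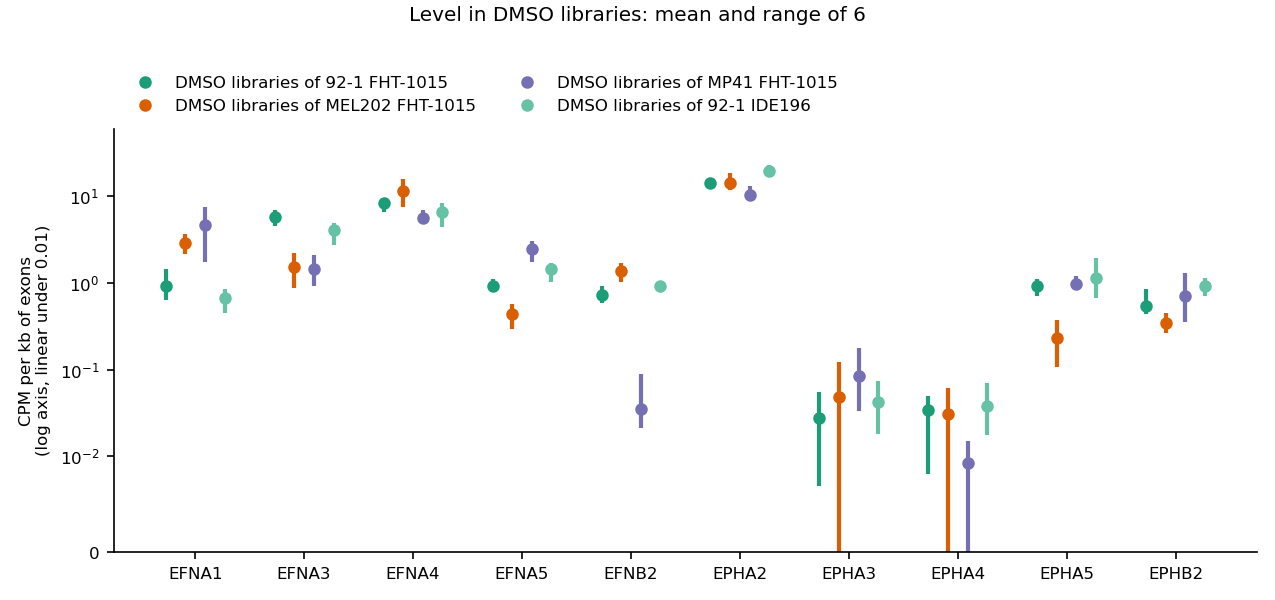
Level of each gene in DMSO libraries as CPM per kilobase of exon on a log axis that is linear under 0.01; dots are means and bars the range of 6 libraries in each of the 4 DMSO sets. EPHA2 is highest in each set, and EFNB2 in MP41 sits at 0.0353 against 1.39 in MEL202.

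Among the 10 genes, the widest difference between lines was that of EFNB2, the ephrin-B ligand of vessels and boundaries, which MP41 almost lacked. In DMSO at 4 h its level was 0.447, 0.108 and 0.113 CPM in the replicates of MP41, against 5.23, 6.75 and 6.4 CPM in MEL202 and 3.13, 2.97 and 3.51 CPM in 92-1. The groups did not overlap, and the fit across the 24 DMSO libraries put MP41 below MEL202 by a log2 difference of -5.34 (SE 0.246, edgeR quasi-likelihood test, Benjamini-Hochberg adjusted p = 6.41e-15). EFNA1 was lowest in 92-1, at 0.925 ± 0.294 CPM per kb (n = 6), and higher in MEL202 by 1.64 (SE 0.206, adjusted p = 4.07e-07) and in MP41 by 2.15 (SE 0.206, adjusted p = 3.03e-09) on the log2 scale with edgeR. These values pool both times of DMSO, and MP41 against MEL202 depended on the time: scaled within each experiment, MP41 held 6.65 ± 0.763 CPM per kb (n = 3) at 4 h beside 2.53 ± 0.37 in MEL202, and 2.76 ± 0.892 at 24 h beside 3.25 ± 0.504. The pooled log2 difference of 0.52 (SE 0.19, adjusted p = 0.0231 by edgeR) was not called without replicate 1 at 4 h of either line, replicate 2 of MEL202 at 24 h or replicate 1 of MP41 at 24 h (adjusted p from 0.0515 to 0.0791). EFNA3 ran the other way, lower in MEL202 by a log2 difference of -1.98 (SE 0.173) and in MP41 by -2.12 (SE 0.175), each past the threshold. EFNA5 was highest in MP41 and lowest in MEL202, at 2.44 ± 0.472 and 0.442 ± 0.0888 CPM per kb, a log2 difference of 2.4 (SE 0.158, adjusted p = 4.74e-12 by edgeR). EPHA5, an ephrin-A receptor best known from neurons, was at 0.935 ± 0.138 CPM per kb in 92-1 and 0.977 ± 0.148 in MP41, a log2 difference of -0.02 that did not pass the test (SE 0.222, adjusted p = 0.937 by edgeR), and at 0.23 ± 0.0987 in MEL202. EPHB2, a receptor for ephrin-B ligands, was lower in MEL202 than in 92-1 by a log2 difference of -0.66 (SE 0.193) and than in MP41, where it was higher by 0.87 (SE 0.192), both past the threshold.

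Of the 10 genes, 9 were tested in these comparisons, EPHA4 having too few reads. Those called numbered 7 between MEL202 and 92-1, against 55.4% of all genes tested, 7 between MP41 and 92-1, against 67.3%, and 7 between MP41 and MEL202, against 58.3%. Among these, EFNA4 was higher in MEL202 than in 92-1 by a log2 difference of 0.45 (SE 0.166) that was not called without the filter on low counts (edgeR adjusted p = 0.0526) or without replicate 1 of either line at 4 h or 24 h (0.0524 to 0.0898). EPHA3 was higher in MP41 than in 92-1 by 1.53 (0.96 without replicate 3 of MP41 at 4 h), not called without replicate 2 or 3 at 4 h or 1 or 3 at 24 h of 92-1, or replicate 3 at 4 h or 1 at 24 h of MP41 (edgeR adjusted p from 0.0537 to 0.197). These comparisons share libraries. A line and its experiment cannot be told apart here. The 2 DMSO sets of line 92-1 also stood apart: with the set beside FHT-1015 as reference, the log2 differences of the set beside IDE196 were 0.77 (SE 0.15) for EFNA5, 0.49 (SE 0.173) for EFNB2, 0.60 (SE 0.127) for EPHA2, 0.87 (SE 0.187) for EPHB2 and -0.43 (SE 0.163) for EFNA3, and from -0.33 (EFNA1) to 0.76 (EPHA3) for the other 4. The EPHB2 gap between sets of one line exceeded in size its gap of -0.66 between lines. The order of EPHA2 across lines also depends on the set, since the second DMSO set of 92-1 held 19.9 ± 2.24 CPM per kb.

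EFNA1 was the ligand that rose with FHT-1015 in all 3 lines at 24 h. In 92-1 its level was 1.65, 2.53 and 1.6 CPM in DMSO and 11.1, 12.7 and 12.6 CPM with the drug. All treated libraries lay above all DMSO libraries, a log2 fold change of 2.66 (SE 0.224, adjusted p = 6.94e-08 by edgeR). In MP41 the DMSO libraries held 8.83, 7.72 and 4.47 CPM and the treated ones 27.7, 26.1 and 29.1 CPM, again without overlap, a change of 1.98 (SE 0.228, adjusted p = 2.15e-05 by edgeR). In MEL202 the values were 9.44, 6.89 and 8.39 CPM in DMSO and 13.4, 17.7 and 17.0 CPM with FHT-1015, a change of 0.96 (SE 0.257, adjusted p = 0.0183 by edgeR). This smallest rise was not called without DMSO or FHT-1015 replicate 2 or 3 of MEL202 at 24 h (edgeR adjusted p from 0.063 to 0.0778).

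At 4 h EFNA1 did not pass the test in any line when each experiment was fitted alone with edgeR, but some alternatives called it in each. Its level in 92-1 was 2.35, 3.66 and 2.3 CPM in DMSO and 3.5, 4.24 and 4.78 CPM with FHT-1015, overlapping groups with a log2 change of 0.58 (SE 0.221, adjusted p = 0.0616 by edgeR). It was called under 1 of 8 alternatives (adjusted p = 0.03 by edgeR) and without DMSO replicate 2 at 4 h or 24 h or FHT-1015 replicate 1 at 4 h (adjusted p from 0.0189 to 0.0483 by edgeR). In MP41 the values were 19.1, 15.3 and 16.3 CPM against 39.3, 28.7 and 33.7 CPM, which did not overlap, with a change of 1.00 (SE 0.219, adjusted p = 0.0974 by edgeR). That change was called by 4 of the alternatives, DESeq2 among them (adjusted p from 0.00253 to 0.0113), and without DMSO replicate 2 or 3 of MP41 at 24 h (adjusted p 0.0267 and 0.00321). The DMSO level of EFNA1 in MP41 itself was lower at 24 h, 7.01 ± 2.26 CPM (n = 3), than at 4 h, 16.9 ± 1.94 CPM, so each time was read against its own DMSO. In MEL202 at 4 h the change was 0.76 (SE 0.26, adjusted p = 0.31 by edgeR), and it was called with all 48 libraries in 1 fit (0.77, adjusted p = 0.0373 by edgeR).

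**Figure D2:**
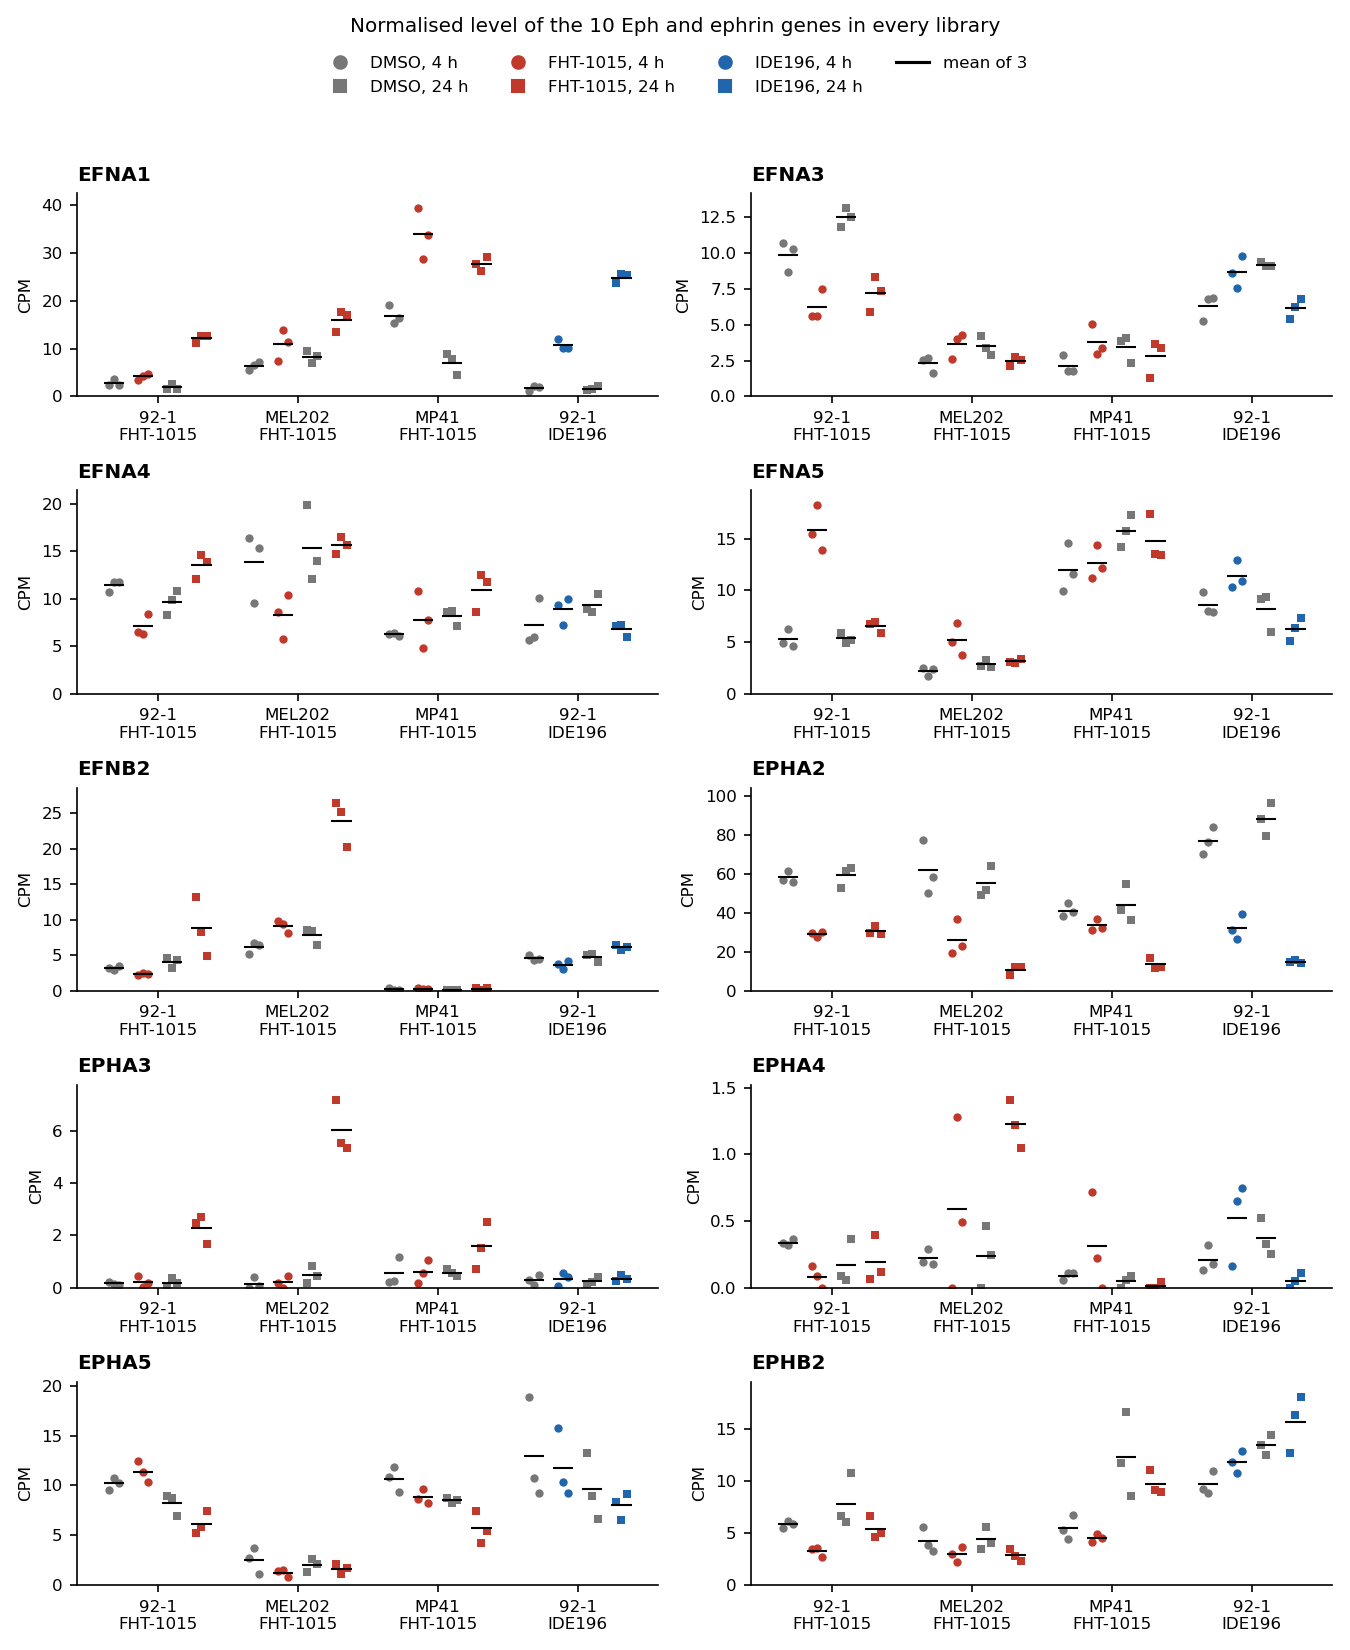
Level in CPM (linear axes from 0) of each of the 10 genes in all 48 libraries, by experiment; circles are 4 h, squares 24 h, grey DMSO, red FHT-1015, blue IDE196, and black lines the means of 3. EFNA1 is above DMSO in all treated libraries at 24 h, and EPHA2 is below it in all treated libraries at both times.

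EFNA5, an ephrin-A ligand with roles in axon guidance, rose in 92-1 at 4 h. Its level was 4.86, 6.25 and 4.6 CPM in DMSO and 15.4, 18.2 and 13.9 CPM with FHT-1015, a log2 change of 1.59 (SE 0.155, adjusted p = 1.55e-06 by edgeR) without overlap. At 24 h the groups overlapped, at 5.88, 4.93 and 5.18 CPM against 6.75, 6.97 and 5.88 CPM, and the change was 0.28 (SE 0.164, adjusted p = 0.146 by edgeR). In MEL202 at 4 h the DMSO libraries held 2.52, 1.7 and 2.37 CPM and the treated ones 4.96, 6.83 and 3.77 CPM. Those groups did not overlap, but the change of 1.24 (SE 0.303) missed the threshold with edgeR (adjusted p = 0.0997), while DESeq2 (adjusted p = 0.00691) and the edgeR fit of all 48 libraries (adjusted p = 0.000169) called it. In MP41, the line with the highest EFNA5, the change was 0.06 (SE 0.193) at 4 h and -0.09 (SE 0.19) at 24 h, neither past the threshold.

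EFNA3 and EFNA4, the ephrin-A genes upstream of EFNA1, fell in 92-1 at 4 h. EFNA3 held 10.7, 8.64 and 10.3 CPM in DMSO and 5.59, 5.57 and 7.48 CPM with FHT-1015, a log2 change of -0.68 (SE 0.16, adjusted p = 0.00462 by edgeR). EFNA4 held 10.7, 11.7 and 11.7 CPM against 6.47, 6.32 and 8.42 CPM, a change of -0.70 (SE 0.146, adjusted p = 0.00193 by edgeR). In both genes every treated library lay below every DMSO library. By 24 h they had parted: EFNA3 remained lower by -0.80 (SE 0.16, adjusted p = 0.000453 by edgeR), whereas EFNA4 was higher by 0.49 (SE 0.144, adjusted p = 0.00776 by edgeR). Both 4 h calls and the 24 h call of EFNA4 were lost when all 48 libraries shared 1 fit (adjusted p from 0.0631 to 0.0985). In MEL202 and MP41 the changes of EFNA3 ranged from -0.49 to 0.81 and those of EFNA4 from -0.74 to 0.43, and none passed the test.

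EFNB2 rose at 24 h in both lines that express it. In MEL202 the DMSO libraries held 8.58, 8.41 and 6.39 CPM and the treated ones 26.5, 25.2 and 20.2 CPM, far apart, a log2 change of 1.62 (SE 0.22, adjusted p = 0.00022 by edgeR). In 92-1 the values were 4.64, 3.21 and 4.31 CPM against 13.2, 8.32 and 4.83 CPM, treated libraries that differ widely but all lie above DMSO, a change of 1.10 (SE 0.278, adjusted p = 0.00286 by edgeR). Without FHT-1015 replicate 1, the highest library, the change in 92-1 was 0.68 (adjusted p = 0.0276 by edgeR), and without replicate 3, the lowest treated one, it was 1.42. At 4 h the treated libraries lay below DMSO in 92-1 (change -0.45, SE 0.304) and above it in MEL202 (0.58, SE 0.22), and neither change passed the test. In MP41 the gene had from 8 to 18 reads in a group of 3 libraries and was not tested.

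EPHA2, the most abundant of the 10 genes per kilobase in DMSO, fell in all 3 lines at 24 h. In MEL202 its level was 49.1, 52.0 and 64.4 CPM in DMSO and 8.15, 12.3 and 12.1 CPM with FHT-1015, a log2 change of -2.34 (SE 0.284, adjusted p = 9.44e-05 by edgeR). In MP41 the values were 41.7, 54.9 and 36.3 CPM against 16.8, 11.6 and 12.4 CPM, a change of -1.70 (SE 0.191, adjusted p = 1.73e-05 by edgeR). In 92-1 they were 53.1, 61.7 and 63.0 CPM against 29.9, 33.2 and 29 CPM, a change of -0.95 (SE 0.0945, adjusted p = 4.22e-07 by edgeR). Treated libraries lay below all DMSO libraries in every line at both times.

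At 4 h EPHA2 had already fallen in 92-1, from 57.2, 61.8 and 56.0 CPM to 29.6, 27.8 and 30.3 CPM, a log2 change of -1.0 (SE 0.0936, adjusted p = 1.08e-06 by edgeR). In MEL202 it stood at 77.4, 50.3 and 58.5 CPM in DMSO and 19.3, 36.9 and 22.8 CPM with the drug, a change of -1.24 (SE 0.273) that missed the threshold with edgeR (adjusted p = 0.0646). The highest treated value, 36.9 CPM, came from the library with the fewest genes detected, and without it the change was -1.56 (edgeR adjusted p = 0.0129). With that library in, 3 alternatives called the change, DESeq2 among them (adjusted p from 1.78e-05 to 0.00248). In MP41 at 4 h the values were 38.3, 44.9 and 40.3 CPM against 31.5, 37.1 and 32.5 CPM, a change of -0.29 (SE 0.185, adjusted p = 1 by edgeR).

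**Figure D3:**
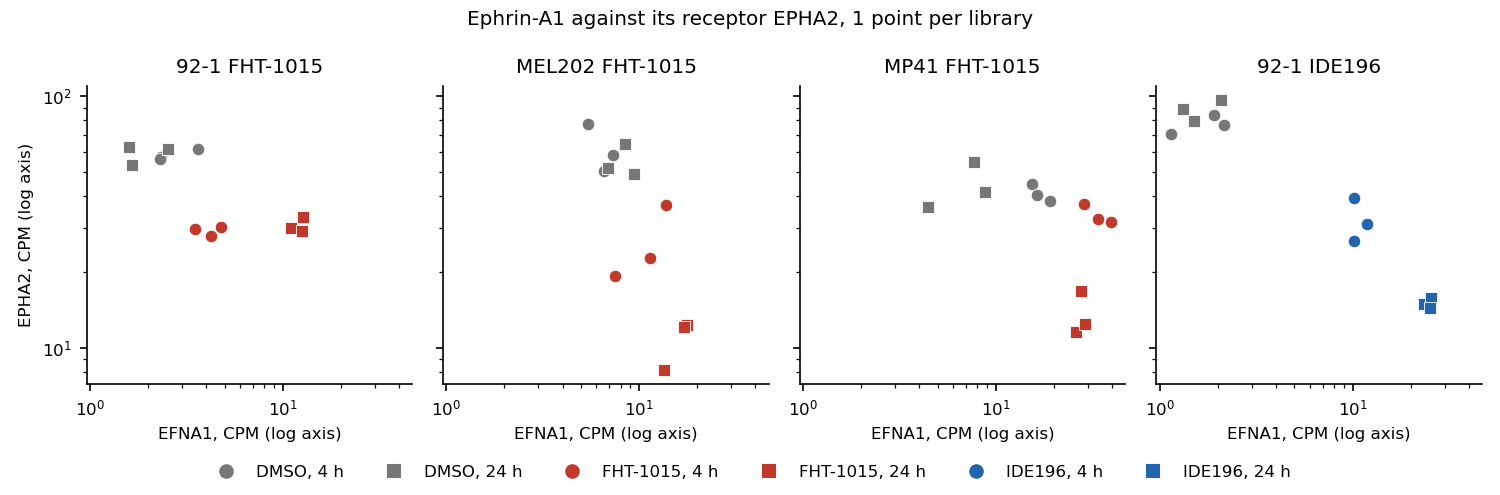
EPHA2 level (vertical) against EFNA1 level (horizontal), both in CPM on log axes, with 1 point per library in each experiment. At 24 h the treated libraries lie to the right of and below their DMSO libraries in all 4 experiments, for example at 27.7 CPM of EFNA1 and 16.8 CPM of EPHA2 in replicate 1 of MP41 with FHT-1015.

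EPHA3 rose at 24 h in MEL202 and 92-1 from a very low level. In MEL202 the DMSO libraries held 0.195, 0.818 and 0.461 CPM and the treated ones 7.18, 5.52 and 5.35 CPM, summing to 34 and 396 reads, a log2 change of 3.65 (SE 0.795, adjusted p = 0.0057 by edgeR). In 92-1 the values were 0.0459, 0.37 and 0.185 CPM against 2.46, 2.69 and 1.69 CPM, or 10 and 99 reads in all, a change of 3.54 (SE 0.576, adjusted p = 6.83e-05 by edgeR). Without DMSO replicate 2, the highest of its group, that change was 4.31, and without DMSO replicate 1, the lowest, it was 2.99. In MP41 the groups also did not overlap, at 0.702, 0.572 and 0.434 CPM against 0.717, 1.51 and 2.52 CPM, but the change of 1.49 (SE 0.669) did not pass the test (edgeR adjusted p = 0.0983). It passed only just without the filter on low counts (1.48, edgeR adjusted p = 0.0488). At 4 h the EPHA3 groups overlapped in all 3 lines, with changes from 0.21 to 0.48 that did not pass.

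EPHA5 was lower at 24 h in 92-1, by a log2 change of -0.41 (SE 0.159, adjusted p = 0.0366 by edgeR), and in MP41, by -0.59 (SE 0.208, adjusted p = 0.0406 by edgeR). In 92-1 the groups overlapped, at 8.96, 8.76 and 6.9 CPM in DMSO and 5.25, 5.86 and 7.39 CPM with FHT-1015. In MP41 they did not, at 8.78, 8.23 and 8.55 CPM against 7.41, 4.21 and 5.46 CPM. Both calls were marginal. That in 92-1 was lost without DMSO or FHT-1015 replicate 1 or 2 at 24 h (adjusted p from 0.0882 to 0.14) and under 4 of 8 alternatives (adjusted p from 0.0548 to 0.339). That in MP41 was lost without 7 of the 12 libraries in turn, namely any DMSO replicate at 4 h, FHT-1015 replicate 2 at 4 h, DMSO replicate 1 at 24 h, or FHT-1015 replicate 2 or 3 at 24 h (adjusted p from 0.0509 to 0.161), and under 3 of 8 alternatives (adjusted p from 0.0861 to 0.117). In MEL202, where EPHA5 is low, the changes were -1.01 (SE 0.491) at 4 h and -0.30 (SE 0.48) at 24 h and did not pass.

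EPHB2 fell in 92-1 at 4 h, from 5.48, 6.15 and 5.87 CPM to 3.46, 3.58 and 2.7 CPM, a log2 change of -0.83 (SE 0.224, adjusted p = 0.011 by edgeR). At 24 h the groups overlapped, at 6.66, 6.05 and 10.8 CPM against 6.62, 4.6 and 5.01 CPM, and the change of -0.53 (SE 0.218) passed only just (edgeR adjusted p = 0.0468). It was lost under 6 of 8 alternatives (adjusted p from 0.054 to 0.103) and without 6 of 12 libraries in turn, namely DMSO replicate 2 or 3 or FHT-1015 replicate 2 at 4 h, or DMSO replicate 3 or FHT-1015 replicate 2 or 3 at 24 h (adjusted p from 0.0505 to 0.31). Without DMSO replicate 3 at 24 h, the highest library of EPHB2 there, the change was -0.25. In the other lines its changes ranged from -0.62 to -0.28 and did not pass. At 24 h that in MP41, -0.34, passed without DMSO replicate 3 (-0.61, adjusted p = 0.0276 by edgeR), and that in MEL202 with all 48 libraries in 1 fit (adjusted p = 0.0493 by edgeR).

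EPHA4 was hardly read in any line. Its libraries summed to 18 and 9 reads per DMSO group and 6 and 8 reads with FHT-1015 in 92-1, at 4 h and 24 h, and to 5, 3, 12 and 1 reads in the 4 groups of MP41, and it was not tested there. In MEL202 at 24 h the DMSO libraries held 0, 8 and 8 reads and the treated ones 29, 30 and 22 reads, without overlap, and the log2 change of 2.41 (SE 1.04) did not pass the test with edgeR (adjusted p = 0.129). It passed under 3 alternatives (adjusted p from 0.0211 to 0.0455), among them the fit without the filter on low counts. In MEL202 at 4 h the DMSO libraries held 4, 5 and 3 reads and the treated ones 0, 28 and 9, overlapping groups. That change was 1.41 (SE 1.09, adjusted p = 0.839 by edgeR), and the 28 reads came from the library with the fewest genes detected.

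**Figure D4:**
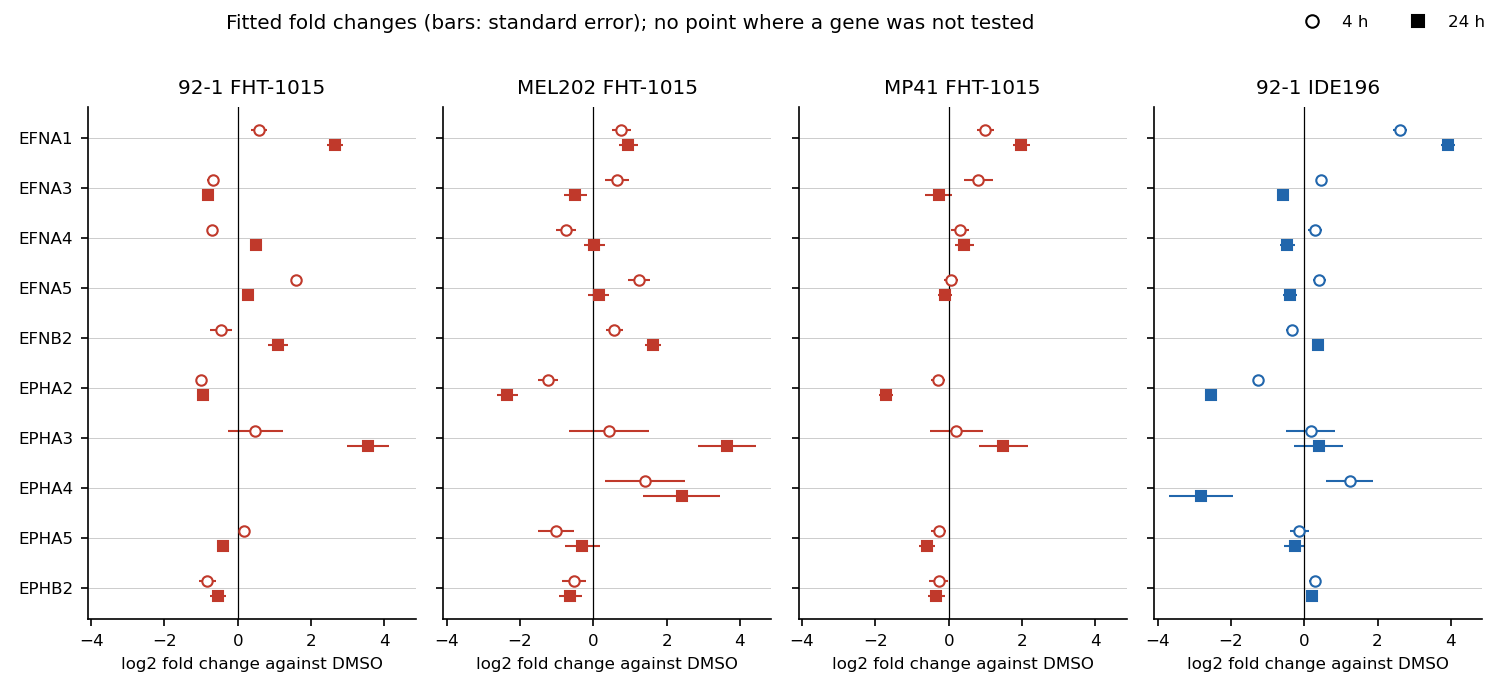
Fitted log2 fold change against DMSO for each gene in the 4 experiments; open circles are 4 h, filled squares 24 h, and bars standard errors. In each FHT-1015 panel EFNA1 at 24 h lies to the right of 0 (0.96 to 2.66) and EPHA2 to the left (-2.34 to -0.95).

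Counted over the genes, 1 was called higher with FHT-1015 at 4 h (EFNA5) and 4 lower (EFNA3, EFNA4, EPHA2 and EPHB2) of the 9 tested in 92-1, where 12.9% of all genes were called higher and 16.7% lower. At 24 h in 92-1, 4 were higher (EFNA1, EFNA4, EFNB2 and EPHA3) and 4 lower (EFNA3, EPHA2, EPHA5 and EPHB2) of 9, with 29.2% and 31.4% of all genes. In MEL202 at 4 h edgeR called 0 of 10, where only 0.157% of all genes were called higher and 0.522% lower; 5 of the 10 had an unadjusted p under 0.05 and DESeq2 called 2. At 24 h in MEL202, 3 were higher (EFNA1, EFNB2 and EPHA3) and 1 lower (EPHA2) of 10, with 8.69% and 10.1% of all genes. In MP41 at 4 h edgeR called 0 of 8, with 0.0708% and 0.154% of all genes, while 1 had an unadjusted p under 0.05 and DESeq2 called 1. For counts by unadjusted p, DESeq2 or another alternative, in either line and below, no share of all genes is given. Such counts cannot be set against the shares printed beside them. At 24 h in MP41, 1 was higher (EFNA1) and 2 lower (EPHA2 and EPHA5) of 8, with 17.4% and 18.7% of all genes. The median log2 change of the tested members at 24 h was 0.28 in 92-1, 0.09 in MEL202 and -0.18 in MP41, beside -0.0008, -0.01 and 0.07 for all genes tested.

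The effect of FHT-1015 changed between 4 h and 24 h in 6 of 9 genes in 92-1, against 45.5% of all genes. It was larger upward at 24 h for EFNA1 (difference of log2 changes 2.08, SE 0.316), EFNA4 (1.19, SE 0.205), EFNB2 (1.56, SE 0.412) and EPHA3 (3.07, SE 1.03), and it shifted downward for EFNA5 (-1.31, SE 0.225) and EPHA5 (-0.58, SE 0.217). The difference for EPHA3 was not called without DMSO replicate 1 or 2 at 4 h or DMSO replicate 1 at 24 h (edgeR adjusted p from 0.0515 to 0.0859) or with all 48 libraries in 1 fit (0.0966), and that for EPHA5 was lost without 8 of 12 libraries in turn (0.0641 to 0.102), namely DMSO replicate 1 or 3 at 4 h and replicates 1 or 2 of the other 3 groups, and under 2 of 7 alternatives (0.0612 and 0.375). In MP41 the effect differed between times for EFNA1 (0.98, SE 0.311) and EPHA2 (-1.42, SE 0.263), 2 of 8 genes against 18.6% of all genes. The EFNA1 difference there was lost without any replicate of 3 of the 4 groups, all but DMSO at 24 h (edgeR adjusted p from 0.0629 to 0.11). In MEL202, 0 of 10 genes were called by edgeR, against 6.89% of all genes. At an unadjusted p under 0.05 there were 5, with DESeq2 1, and with all 48 libraries in 1 fit 4. No share of all genes under these other criteria is given, so these counts cannot be set against 1. EPHA2 in 92-1 had a difference of 0.05 (SE 0.132), its 4 h and 24 h changes being -1.0 and -0.95.

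The size of the effect differed among lines for EFNA5 at 4 h and for EFNA1 and EPHA2 at 24 h. The F-test over the 3 lines gave an edgeR adjusted p of 0.00313 for EFNA5, whose 4 h changes were 1.59, 1.24 and 0.06 in 92-1, MEL202 and MP41. For EFNA1 it gave 0.0017, with 24 h changes of 2.66, 0.96 and 1.98, and for EPHA2 0.00201, with -0.95, -2.34 and -1.70. So 92-1 had the largest EFNA1 rise and the smallest EPHA2 fall in these point values, and MEL202 the reverse. At 4 h, 1 of 10 genes differed, against 1.38% of all genes, and at 24 h 2 of 10, against 12%. EPHA2 at 4 h also passed without FHT-1015 replicate 2 of MEL202 at 4 h (edgeR adjusted p = 0.0193), and EFNA3 at 4 h without FHT-1015 replicate 1 of MP41 at 24 h (edgeR adjusted p = 0.034), with DESeq2 (adjusted p = 0.0222) and with all 48 libraries in 1 fit (edgeR adjusted p = 0.0305).

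IDE196 in 92-1 gave the values by which EFNA1 and EPHA4 were chosen. EFNA1 held 1.15, 2.16 and 1.91 CPM in DMSO and 11.9, 10.2 and 10.2 CPM with IDE196 at 4 h, and 1.32, 1.51 and 2.08 CPM against 23.6, 25.6 and 25.3 CPM at 24 h. The groups were far apart, with log2 changes of 2.62 (SE 0.192) and 3.91 (SE 0.191). EPHA4 held 3, 8 and 4 reads in DMSO and 4, 13 and 14 with IDE196 at 4 h, and 12, 7 and 6 reads against 0, 1 and 2 at 24 h. Its counts thus overlapped at 4 h and lay apart at 24 h, all on few reads, and no fold is given.

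EPHA2 under IDE196 held 70.4, 76.7 and 84.0 CPM in DMSO and 31.1, 26.5 and 39.4 CPM treated at 4 h, and 88.6, 79.4 and 96.8 CPM against 14.9, 15.8 and 14.4 CPM at 24 h, log2 changes of -1.25 (SE 0.124) and -2.55 (SE 0.131). EFNA3 was higher at 4 h by 0.46 (SE 0.15) and lower at 24 h by -0.58 (SE 0.15), without overlap at either time. EFNA4 had changes of 0.29 (SE 0.2) and -0.46 (SE 0.201), EFNA5 of 0.40 (SE 0.178) and -0.38 (SE 0.186), and EFNB2 of -0.34 (SE 0.173) and 0.38 (SE 0.167). Without DMSO replicate 6 of the same time, the EFNA4 change at 4 h was 0.60 and the EFNA5 change at 24 h was -0.58. EPHA3, which FHT-1015 brought up in the same line, held 0.132, 0.236 and 0.425 CPM in DMSO and 0.254, 0.478 and 0.324 CPM with IDE196 at 24 h, overlapping groups. EPHA5 had changes of -0.13 and -0.26, which turned positive (0.24 and 0.03) without DMSO replicate 4 at 4 h and 24 h, the highest library of each group, and the 4 h change was also positive (0.01) without IDE196 replicate 3. EPHB2 had 0.29 (SE 0.143) and 0.22 (SE 0.138). Whether the 2 drugs differ in effect in 92-1 was not tested, since each was set against its own DMSO libraries and the sets themselves differ.

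Across the 8 fold changes (4 experiments by 2 times), the pattern of EFNA1 was most like that of CREB5 (Pearson r = 0.97), SLC2A11 (r = 0.97) and ATG2A (r = 0.96) among 10225 genes. Of the 7 other members tested in all experiments, EPHB2 had r = 0.76 and EFNA5 r = -0.66 with EFNA1, the ends of the range. In between, r was -0.44 for EPHA2, -0.31 for EFNA3, -0.01 for EPHA3, 0.07 for EPHA5 and 0.27 for EFNA4. These describe 8 points that share libraries within experiments. Among the points are the IDE196 changes by which EFNA1 was chosen, 2.62 at 4 h and 3.91 at 24 h. The 3 genes named were picked as the highest of 10225, so their r values are a description without a test. EPHA4 was not tested in all experiments and has no such value.

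Among the other 12 family genes, EPHA7, an ephrin-A receptor, rose with FHT-1015 at 24 h in all 3 lines, by 2.08 (SE 0.247) in 92-1, 3.68 (SE 0.824) in MEL202 and 1.16 (SE 0.302) in MP41, each past the threshold. EPHB3, an ephrin-B receptor, fell at 4 h in 92-1, from 1.45, 1.06 and 1.39 CPM to 0.125, 0.0442 and 0 CPM, and in MEL202, from 3.39, 3.05 and 4.8 CPM to 0.556, 1.19 and 0.983 CPM, and had a change of -1.33 (SE 0.437) in MP41 that did not pass. At 24 h EPHB3 passed in no line, with changes from -0.84 to 0.70. EFNB3, an ephrin-B ligand, fell at 4 h in 92-1 by -0.91 (SE 0.0961) and was higher at 24 h by 0.32 (SE 0.0932). EFNA2 was lower at 4 h (-0.50, SE 0.176) and higher at 24 h (0.47, SE 0.175) in 92-1 and higher at 24 h in MEL202 (0.80, SE 0.213), and EFNB1 was lower in 92-1 at 24 h (-0.82, SE 0.151). EPHB4, an ephrin-B2 receptor and the first or second most abundant family gene per kilobase in each DMSO set, was lower in 92-1 at 4 h (-0.32, SE 0.0951) and otherwise passed in no line. In all, 1 of these genes was higher and 4 lower of 6 tested in 92-1 at 4 h, where 12.9% and 16.7% of all genes were called, and 3 and 1 of 6 at 24 h, where 29.2% and 31.4% were. In MEL202 the counts were 0 and 1 of 7 at 4 h, against 0.157% and 0.522% of all genes, and 2 and 0 of 7 at 24 h, against 8.69% and 10.1%. In MP41 edgeR called 0 of 8 at 4 h (1 at an unadjusted p under 0.05), against 0.0708% and 0.154% of all genes, and 1 and 0 of 8 at 24 h, against 17.4% and 18.7%.

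A list of 34 genes that act with Eph receptors, such as adaptors and kinases, was counted beside them. In 92-1 with FHT-1015, 1 was called higher and 12 lower of 30 at 4 h, where 12.9% and 16.7% of all genes were called, among them the kinases ABL2 (0.82, SE 0.132) and SRC (-1.44, SE 0.0853), and 9 higher and 13 lower at 24 h, where 29.2% and 31.4% were, led by SIPA1L1 (2.08, SE 0.167) and VAV3 (-1.82, SE 0.442). VAV3 had the largest fall at 24 h also in MEL202 (-1.16, SE 0.24) and MP41 (-1.56, SE 0.287), and the adaptor GRB7 the largest rise there (3.70, SE 0.854, and 3.05, SE 0.524). The counts at 24 h were 5 higher and 1 lower of 33 in MEL202, against 8.69% and 10.1% of all genes, and 7 and 5 of 34 in MP41, against 17.4% and 18.7%. At 4 h edgeR called 0 of 33 in MEL202, with 0 at an unadjusted p under 0.05, and 0 of 34 in MP41, with 2, where at most 0.522% and 0.154% of all genes were called in 1 direction.

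The genes next to EFNA1 moved in different directions. At 24 h of FHT-1015 in 92-1, EFNA1 changed by 2.66, while SLC50A1, the next gene downstream, changed by 0.62 (SE 0.104, adjusted p = 9.63e-05 by edgeR), and ADAM15, upstream of EFNA4, by -1.21 (SE 0.085, adjusted p = 8.58e-09 by edgeR). ADAM15 fell in all 3 lines, also in MEL202 (-0.72, SE 0.209) and MP41 (-0.64, SE 0.134). Farther downstream MUC1 rose in all 3 lines (1.73, SE 0.44, in 92-1, 2.41, SE 0.421, in MEL202 and 1.39, SE 0.413, in MP41), and THBS3 rose in 92-1 (2.04, SE 0.161) and MP41 (1.04, SE 0.246) with a change of -0.25 (SE 0.206) in MEL202 that did not pass. Between MUC1 and EFNA1, TRIM46 rose in 92-1 (1.04, SE 0.198) and MEL202 (1.51, SE 0.433) and had a change of 0.74 (SE 0.299) in MP41 that did not pass, while DPM3 and KRTCAP2 had changes from -0.52 to 0.55 at 24 h of FHT-1015, none past the threshold.

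**Figure D5:**
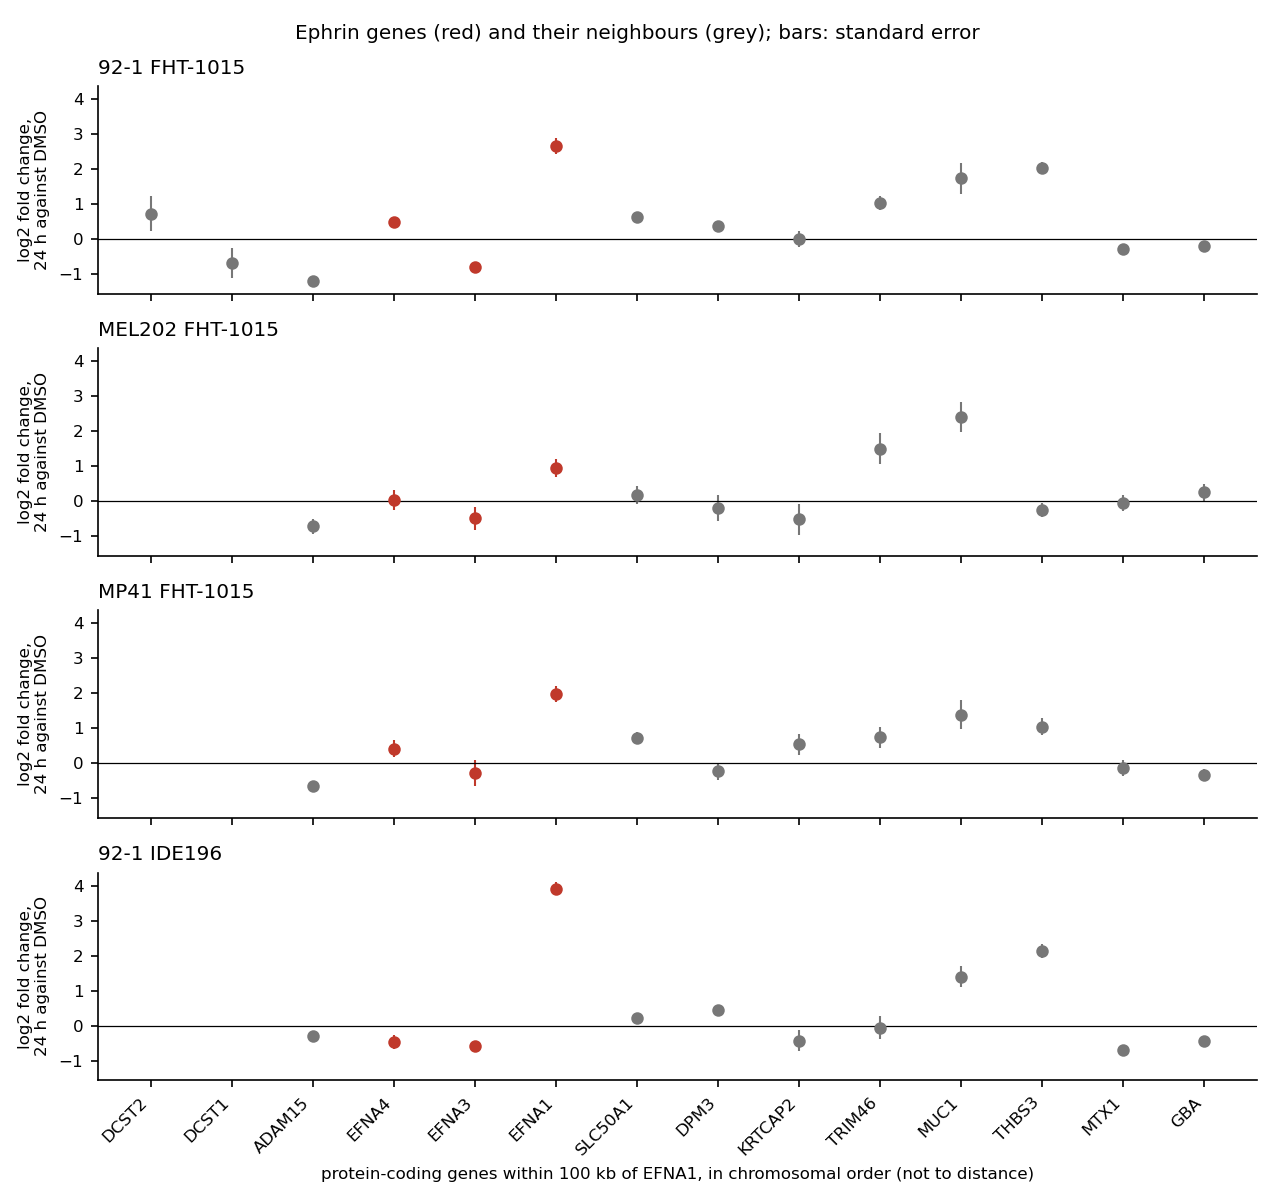
Log2 fold change at 24 h against DMSO for protein-coding genes within 100 kb of EFNA1, in chromosomal order and not spaced by distance; ephrins are red, other genes grey, bars standard errors, and untested genes have no point. EFNA1, EFNA3 and EFNA4 have changes of 2.66, -0.80 and 0.49 in 92-1 with FHT-1015.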

How the data were processed

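Poly-A RNA was sequenced with a kit that does not mark strand, per the labels' protocols. The deposited files hold the authors' raw read counts per gene, in the layout of STAR gene counts, per the file headers and values, and counts without regard to strand were taken. The first strand held from 49.728% to 50.112% of the stranded reads per library. The submitters' processing notes name hg38 and limma, without their roles, and the aligner's settings and gene annotation are not given in the sources used here. Symbols and positions came from GENCODE release 29 (GRCh38) by unversioned identifier (58588 of 58870 genes matched, 47456 with the same version), and promoter windows from RefSeq GRCh38.p14. No protein sequence was used here.

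Each experiment was fitted alone with edgeR 4.0.16 in R 4.3.3: TMM scaling, filterByExpr, the 4 groups as terms, quasi-likelihood F-tests, and Benjamini-Hochberg adjustment over all genes tested in a comparison (15685 in 92-1, 15913 in MEL202 and 15543 in MP41 with FHT-1015, 15437 with IDE196), with a threshold of 0.05. Differences among lines came from 1 fit of the 36 libraries of the FHT-1015 experiments (18395 genes), and DMSO levels from 1 fit of the 24 DMSO libraries (17286 genes). The standard error is the log2 change divided by the square root of F. CPM, also per kilobase, are TMM-normalised within an experiment. Levels printed for different experiments therefore share no scaling, while the tested log2 differences between lines come from the fit of the DMSO libraries. The scripts were run on simulated counts in which far fewer genes changed than were called at 24 h in any line. That run does not test the fits under shifts as wide as those seen here.

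The named genes are the 10 members in every comparison, the other family genes by counts with values for those tested in all experiments, the signalling list by counts with its largest called rise and fall, and the protein-coding genes within 100 kb of EFNA1, of which those nearest and those past the threshold are described. The 3 genes most like EFNA1 were taken among protein-coding genes with a mean of at least 5 CPM. Members, lists and tests were chosen with earlier results of these data known. Alternatives were relative log expression scaling, no filter on low counts, DESeq2 1.42.0, limma-voom 3.58.1, the sum of both stranded columns, a replicate block, only the samples compared, all 48 libraries in 1 fit, and leaving out each library.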

Additional observations from a re-analysis of the deposited data

Results flagged for a closer look

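The effect of FHT-1015 differed among the 3 lines by an F-test of the difference itself for EFNA5 at 4 h (edgeR adjusted p = 0.00313), EFNA1 at 24 h (edgeR adjusted p = 0.0017) and EPHA2 at 24 h (edgeR adjusted p = 0.00201). The 24 h effect differed from the 4 h effect, in the same fit, in 92-1 for EFNA1 (difference of log2 changes 2.08), EFNA4 (1.19), EFNA5 (-1.31), EFNB2 (1.56), EPHA3 (3.07) and EPHA5 (-0.58). In MP41 it differed for EFNA1 (0.98) and EPHA2 (-1.42). Groups of 3 libraries are too small for a test of single outlying libraries, and none was made.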

How the results depend on the processing

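For the 10 genes, 157 results were recomputed. Of 1110 values under alternatives other than leaving out a library, 1065 kept their side of the threshold and, beyond the standard error, their direction, 20 lost the call, 25 gained it and 0 reversed. Of 2796 values with 1 library left out, 2719 kept both, 55 lost the call, 11 gained it, 7 moved and 4 reversed, the cause of which was not tested. Values counted as kept include 2 and 34, respectively, that were called in neither fit or not tested and that changed sign, with a shift within the standard error. Depth limits EPHA4 and EPHA3, whose fold changes rest on few reads, and EFNB2 in MP41.

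The number of members called moved by more than 1.5 times, or from 0, as follows; smaller moves are not listed. With all 48 libraries in 1 fit it was 3 instead of 5 in 92-1 at 4 h, 5 instead of 8 in 92-1 at 24 h, 3 instead of 0 in MEL202 at 4 h, 4 instead of 0 for the 24 h against 4 h effect in MEL202, 1 instead of 0 in MP41 at 4 h, and 2 instead of 1 for the difference among lines at 4 h. DESeq2 gave 2 instead of 0 in MEL202 at 4 h, 1 instead of 0 for the 24 h against 4 h effect in MEL202 and in MP41 at 4 h, and 2 instead of 1 for the difference among lines at 4 h. Without a filter on low counts the number was 1 instead of 0 in each of those 3 comparisons in MEL202 and MP41. With only the samples compared it was 1 instead of 0 in MP41 at 4 h. No share of all genes called under these fits is given, here or for the left-out libraries below. A move that all genes share thus cannot be told from one of the members.

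By the same limit of 1.5 times, leaving out 1 library gave from 1 to 2 for the difference among lines at 4 h, from 0 to 1 in MEL202 at 4 h, for its 24 h against 4 h effect and in MP41 at 4 h, and from 1 to 2 for the 24 h against 4 h effect in MP41. Directions reversed for EPHA3 between MEL202 and 92-1 in DMSO (0.54, and -0.57 without DMSO replicate 2 of MEL202 at 4 h, range -0.57 to 0.94), for EPHA3 with FHT-1015 in 92-1 at 4 h (0.48, and -0.64 without FHT-1015 replicate 1, range -0.64 to 0.99), and for EPHA5 with IDE196 at 4 h (range -0.41 to 0.24) and 24 h (range -0.48 to 0.0337).

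Same-numbered FHT-1015 and DMSO libraries deviated together in 10 of 18 pairs at a correlation over 0.1 (range -0.522 to 0.726), and 13 of the 18 treated libraries correlated best with their own number. In no line did every pair pass 0.1, the lowest being -0.148 in 92-1, -0.522 in MEL202 and 0.052 in MP41, so the numbers were not taken to pair the libraries. MP41 came closest: 5 of its 6 pairs passed, and all 6 of its treated libraries correlated best with their own number, a hint from the data and not from the design. With a replicate block, 110 of 112 values kept their call, EPHB2 in 92-1 at 24 h was lost (-0.52, edgeR adjusted p = 0.054) and EFNA1 in 92-1 at 4 h was called (0.59, edgeR adjusted p = 0.03), so that 92-1 had 6 members called at 4 h and 7 at 24 h; no call in MP41 or MEL202 changed. The IDE196 arm and its DMSO libraries were not fitted with a block.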
